A study of Mus musculus with 12 samples.

Results

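The interaction of SAMHD1 loss and MDA5 loss was measured across the transcriptome of macrophages from the mouse peritoneum, where they reside in the lining fluid of the abdomen. It asks whether removing MDA5 changed a gene by the same amount in cells without SAMHD1 as in cells with it. All 12 libraries of the series, out of 12, entered this comparison. They fell into 4 genotypes of 3 libraries each: the knockout of both SAMHD1 and MDA5 (DKO), the SAMHD1 knockout (SAMHD1 KO), the MDA5 knockout (MDA5 KO) and wild type (WT). All were untreated and taken at day 0, and strain, age, sex and the design of each allele were not given in the sources used here. Whether each library stands for its own animal was not given, so the p-values below measure the spread between these libraries, which may be technical. In bulk RNA, fewer cells of a type and less RNA per cell cannot be told apart.

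SAMHD1 hydrolyses deoxynucleotides, the building blocks of DNA, and acts at stalled replication forks. MDA5, encoded by Ifih1, senses long double-stranded RNA in the cytosol and signals through the adaptor MAVS to the interferon regulatory factors and to NF-kB. Interferon then raises a broad programme of interferon-stimulated genes, while NF-kB drives cytokines, chemokines and its own inhibitors.

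For each gene the interaction was the log2 difference DKO minus SAMHD1 KO, which is MDA5 loss without SAMHD1, minus the log2 difference MDA5 KO minus WT, which is MDA5 loss with SAMHD1. An interaction of 0 means that both losses added up on the log2 scale. The additive expectation for DKO is the SAMHD1 KO mean plus the MDA5 KO mean minus the WT mean. Levels are reads per gene divided by library size factors (normalised reads), and differences were fitted on log2(normalised reads + 1). Interactions and differences are given with the standard error of limma, with 3 libraries per genotype.

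All 7 markers of peritoneal macrophages were high in every library. Adgre1, which encodes F4/80, had at least 113112 normalised reads in each library, and Gata6, the transcription factor of resident peritoneal macrophages, at least 4901. Totals ran from 33234361 to 58345425 reads per library. WT 3 stood apart from the other WT libraries. It differed from their mean by more than 1 (log2) in 44.3% of genes, against 7.51% to 21.7% for the other 11 libraries within their genotypes. Reads mapped to 800 of 1038 olfactory receptor genes in MDA5 KO 2, but to 107 to 194 of them elsewhere.

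The targeted genes were low where the labels place their loss. Ifih1 had 4.18, 0.881 and 41.9 normalised reads in DKO and 3745, 3163 and 3172 in SAMHD1 KO. It had 0.855, 20 and 0.0 in MDA5 KO and 3357, 2421 and 816 in WT. The 2 differences were -8.81 ± 1.15 and -9.12 ± 1.15, whose size depends on the pseudocount because some libraries were at or near 0. The interaction of Ifih1 was 0.31 ± 1.63, and 0.91 without WT 3. Samhd1 had 4960, 3331 and 1747 normalised reads in DKO and 3689, 3253 and 2954 in SAMHD1 KO, so that transcript remained in both. It had 17462, 14952 and 16058 in MDA5 KO and 17124, 15524 and 7067 in WT, above all 6 libraries without SAMHD1.

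No gene departed from additivity past the threshold. Of 15130 genes tested, limma called 0 (0.0%) in the interaction at a Benjamini-Hochberg adjusted p of 0.05, and the smallest adjusted p was 0.894. Without adjustment, 485 genes (3.21%) had a p under 0.05, of which 355 (2.35%) lay below the additive expectation in DKO and 130 (0.859%) above it. Where no gene departs, a share of 0.05 reaches such a p on average, so 3.21% is not an excess. The count at an unadjusted p under 0.05 was 1121 without WT 1, 1104 without WT 2 and 800 without SAMHD1 KO 1. It was 276 to 289 without any one of DKO 2, DKO 3, MDA5 KO 1, SAMHD1 KO 2 and SAMHD1 KO 3. The interaction was below 0 in 53.6% of genes and above 0 in 46.4%, with a median of -0.05.

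The precision of these libraries set how far additivity could be shown. The interaction lay between -1 and 1 (log2) in 12745 genes, or 84.2%. The median half-width of its 95% interval was 1.03, which is a factor of 2.04, and the whole interval lay within -1 and 1 in 3827 genes (25.3%). Precision followed abundance. In the third of genes with the fewest reads, 60.6% had an interaction within 1 and the median half-width was 2.27. In the third with the most reads, 97.2% had one within 1 and the median half-width was 0.78. For a typical gene, a departure smaller than its half-width could not be told from 0 at this depth and spread, even without adjustment. Single genes had narrower or wider intervals. A call after adjustment needed a larger departure than the half-width. Tgm2, at -2.55 with a 95% interval of -3.77 to -1.33, had an adjusted p in limma of 0.894.

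The 2 effects of MDA5 loss were computed from different libraries and had the same sign in 67.8% of genes. Across the 15130 genes, which are not independent replicates, Pearson's r between them was 0.32 and Spearman's rho 0.41. Without MDA5, expression was lower in both backgrounds in 30.8% of genes and higher in both in 36.9%. It was lower without SAMHD1 and higher with it in 17.5%, and the reverse in 14.8%. On their own, the comparisons held 2 called genes in DKO minus SAMHD1 KO (0.0132%) and 1 in MDA5 KO minus WT (0.00661%). At an unadjusted p under 0.05 these counts were 1333 (8.81%) and 3383 (22.4%). In DKO minus SAMHD1 KO 3.52% of genes were higher and 5.29% lower at that level, and in MDA5 KO minus WT 12.3% were higher and 10.1% lower.

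**Figure D1:**
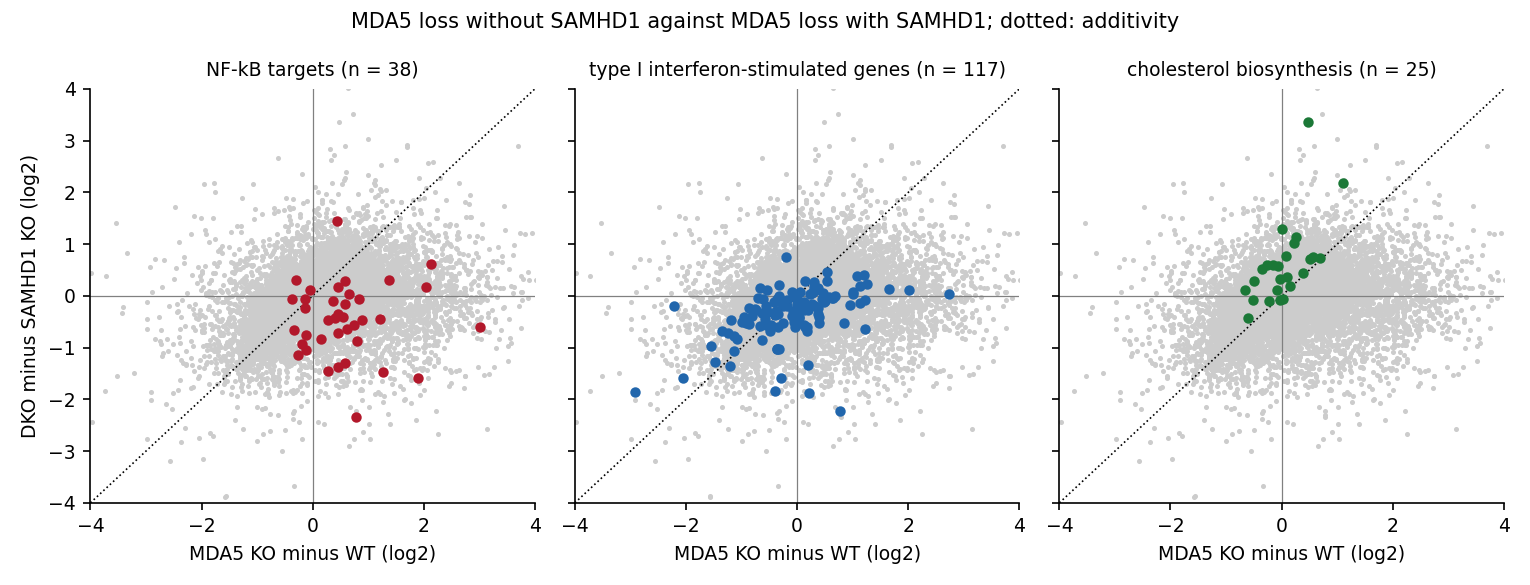
Log2 difference DKO minus SAMHD1 KO (vertical) against MDA5 KO minus WT (horizontal) for every gene tested (grey) and for the members of 3 gene lists (colour), with additivity as the dotted diagonal. The axes end at 4, which leaves out 12 genes, none of them in these lists. NF-kB targets lie mostly below the diagonal, with 21 of 38 to the lower right of the origin, interferon-stimulated genes on both sides of it, and 23 of 25 cholesterol genes above it.

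Gene groups were described by the count and median of their tested members, beside the median of -0.05 over all genes. NF-kB targets, a list of inflammatory cytokines, chemokines and feedback inhibitors, had a median interaction of -0.91. Among lists with at least 10 tested genes, the mast cell markers alone were lower, at -0.93. Of 48 genes listed, 38 passed the filter on low reads, and 33 of these lay below 0, against 53.6% of all genes. At an unadjusted p under 0.05, 10 of 38 were lower and 0 higher, against 2.35% and 0.859% of all genes, while 0 passed after adjustment. The median was -0.45 for DKO minus SAMHD1 KO, with 29 of 38 below 0 against 48.3% of all genes, and 0.46 for MDA5 KO minus WT, with 28 of 38 above 0 against 54.4%. In 21 of 38 members expression after MDA5 loss was lower without SAMHD1 and higher with it, a pattern seen in 17.5% of all genes.

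The mean log2 level over the 38 genes was 8.46, 8.52 and 8.35 in DKO and 8.97, 8.96 and 8.83 in SAMHD1 KO. It was 8.47, 8.46 and 8.93 in MDA5 KO and 8.03, 8.45 and 7.61 in WT. All DKO libraries lay below all SAMHD1 KO libraries, and all MDA5 KO libraries lay above all WT libraries, the highest of which was just under the lowest of MDA5 KO. The additive expectation for DKO was 9.51, and the mean of DKO lay 1.06 under it, at a difference of -1.06. Without WT 3 the median interaction was -0.89, and in the 23 alternative settings it stayed between -1.18 and -0.52. The settings with no filter, other moderation and a replicate block could not move it from -0.91. Erythroid markers were also lower in DKO than in SAMHD1 KO, with a median of -5.46. Their median for MDA5 KO minus WT rested on WT 3, at -1.05 with it and 0.2 without it. The 4 tested haemoglobin genes, near-identical copies of each other in part, had a median interaction of -3.85, or -5.45 without WT 3, and the erythroid list summed to 5.57 to 91.7 normalised reads in DKO, 383 to 590 in SAMHD1 KO, 28.2 to 103 in MDA5 KO and 17.7 to 532 in WT. The erythroid genes Slc4a1, Epb42 and Klf1 were under the filter on low reads. Granulocyte markers, of which 12 of 21 were tested, summed to 14289 to 19107 in DKO, 15116 to 15684 in SAMHD1 KO, 14062 to 18428 in MDA5 KO and 6166 to 14120 in WT. Mast cell markers, of which 11 of 13 were tested, summed to 1525 to 2624 in DKO, 3045 to 3779 in SAMHD1 KO, 2769 to 4527 in MDA5 KO and 3725 to 15400 in WT. Such sums weigh abundant genes most. The mean log2 level over the 12 granulocyte genes was 4.50 in DKO, 4.73 in SAMHD1 KO, 5.42 in MDA5 KO and 5.30 in WT. WT thus had the lowest range of granulocyte sums but not the lowest mean level, and WT 2 stood highest at 6.96. For the 11 mast cell genes the mean level was 3.53, 5.71, 5.11 and 6.42 in the same order of genotypes. The part of erythroid cells, granulocytes and mast cells in the NF-kB values was not tested.

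**Figure D2:**
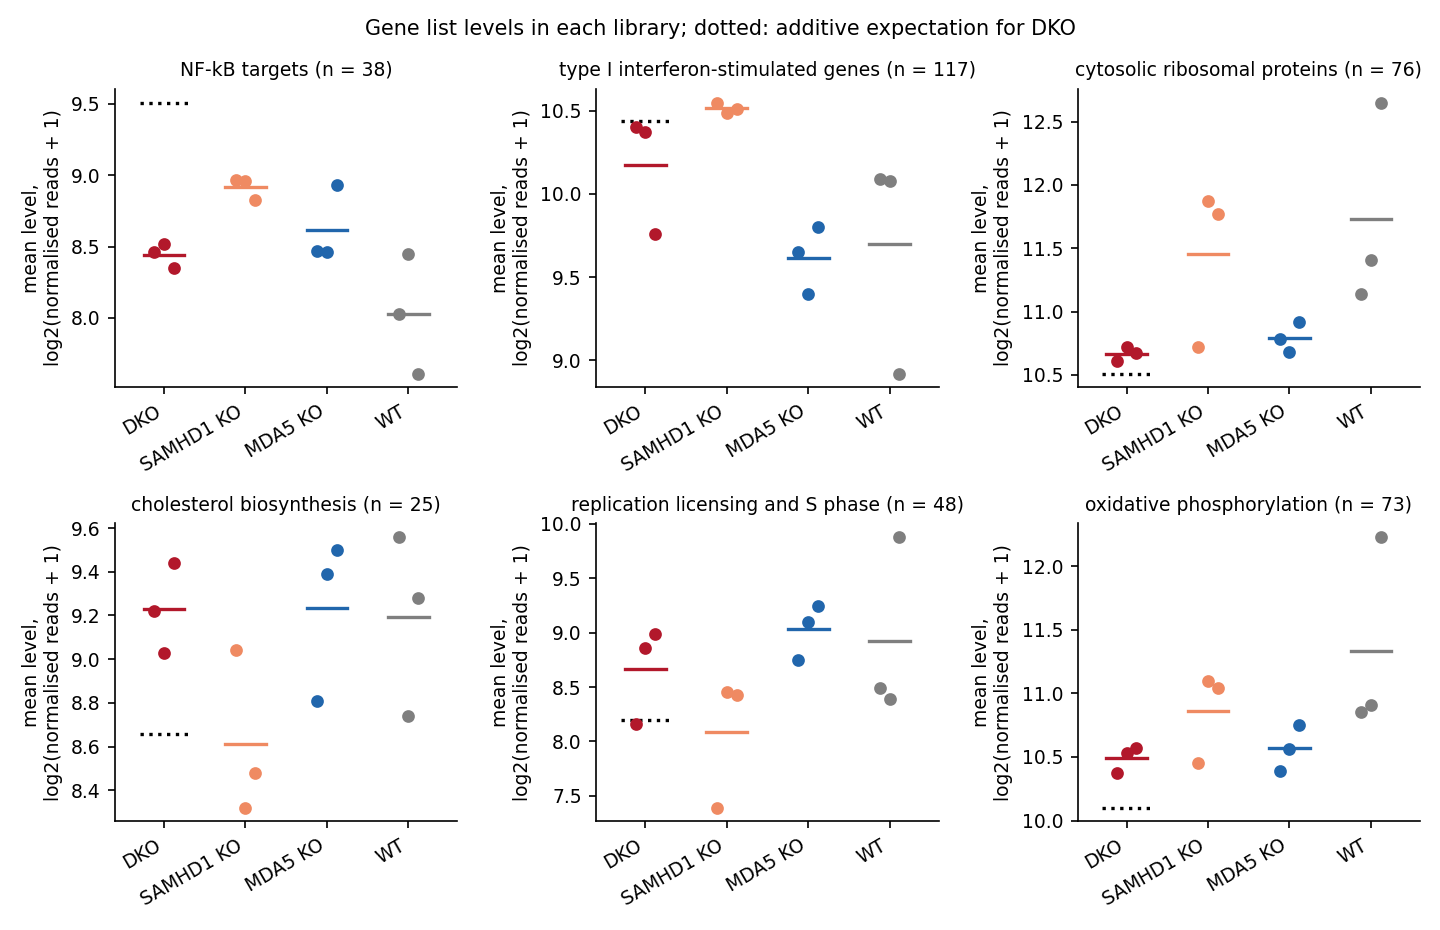
Mean log2(normalised reads + 1) over the tested genes of 6 lists in each library, with genotypes from DKO to WT, a bar at each genotype mean and the additive expectation for DKO as a dotted line. The axes do not start at 0. For NF-kB targets all 3 DKO libraries lie under the dotted line, and for cholesterol biosynthesis all 3 lie over it. WT 3 is the highest WT point for ribosomal proteins, oxidative phosphorylation and replication, and the lowest for NF-kB targets and interferon-stimulated genes.

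Among the inhibitors of NF-kB, Nfkbie, which encodes IkB epsilon (chromosome 17, 45555716 to 45563169), went opposite ways in the 2 backgrounds. Nfkbie had 1014, 1036 and 777 normalised reads in DKO and 1761, 1128 and 1312 in SAMHD1 KO. It had 1015, 1120 and 1281 in MDA5 KO and 835, 960 and 384 in WT. Neither pair of genotypes overlapped, with DKO below SAMHD1 KO and MDA5 KO above WT. Its interaction was -1.30 ± 0.44, with an adjusted p in limma of 0.894, and it stayed between -1.58 and -0.78 in the alternatives.

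Tnip3, which encodes an A20-binding inhibitor of NF-kB signalling, was a low gene (chromosome 6, 65525313 to 65634040). It had 10.4, 11.5 and 6.83 normalised reads in DKO and 32.4, 32.1 and 25.7 in SAMHD1 KO. It had 21.4, 50 and 100 in MDA5 KO and 4.65, 26.7 and 13.5 in WT. DKO lay below SAMHD1 KO in every library, while MDA5 KO and WT overlapped. The interaction of Tnip3 was -3.46 ± 0.96. Tnfaip3, which encodes A20, the deubiquitinase that ends NF-kB signalling, had an interaction of -1.66 ± 0.58, and Nfkbiz, the nuclear inhibitor IkB zeta, one of -1.66 ± 0.62. Nfkbia, which encodes IkB alpha, stood at 0.16 ± 0.58, and Nfkbib at 0.31 ± 0.27. Without WT 3 these were -0.30 for Nfkbia and 0.14 for Nfkbib.

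Effector genes of the list include Saa3, an acute-phase serum amyloid. It had 175310, 137794 and 75412 normalised reads in DKO and 617615, 640339 and 593823 in SAMHD1 KO. It had 165432, 69984 and 186788 in MDA5 KO and 145337, 233304 and 12499 in WT. DKO lay far below SAMHD1 KO, while MDA5 KO and WT overlapped and WT 3 was the lowest library of all. The interaction of Saa3 was -3.12 ± 1.17, and -1.83 without WT 3.

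Cxcl2, a chemokine for neutrophils, had 488, 550 and 189 normalised reads in DKO and 1088, 901 and 894 in SAMHD1 KO. It had 575, 205 and 800 in MDA5 KO and 313, 254 and 466 in WT, 2 groups that overlapped, and its interaction was -1.81 ± 0.69. Icam1, the adhesion receptor for leukocyte integrins, had an interaction of -1.26 ± 0.44. Birc3, the ubiquitin ligase cIAP2, had -1.18 ± 0.41, and Nlrp3, the inflammasome sensor, -0.88 ± 0.38. Among the cytokines, Il10 had -3.63 ± 1.61 at 0.0 to 47.5 normalised reads per library, Tnf -1.88 ± 2.08 and Il6 -0.89 ± 0.82. Of the transcription factors, Relb had -0.83 ± 0.43, Nfkb2 -0.73 ± 0.40, Rel -0.62 ± 0.40 and Nfkb1 -0.30 ± 0.38. Without WT 3 the interaction was -0.46 for Tnf, -1.49 for Il6, -0.40 for Nfkb2, -0.22 for Rel and 0.054 for Nfkb1. Bcl3, a nuclear partner of the p50 and p52 subunits, ran the other way at 1.0 ± 0.70. None of these values passed after adjustment.

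The promoters of NF-kB list members with a kappa B match are shown because these genes share the factor that names the list. The letters GGGA and TTCC with any 2 bases between them were searched on both strands from 250 bases before to 50 after the start in RefSeq promoters (GRCm38.p6). Of 38 tested members 28 were matched in that table, and 4 of these (14.3%) held the letters, against 387 of 27025 promoters (1.43%). The 150 bases before each start are printed 5′ to 3′ on the gene's strand, with the match in capitals. In Cxcl1 and Cxcl2 matches on both strands overlap.
Cxcl1 (chr5:90891095-90891244, plus strand): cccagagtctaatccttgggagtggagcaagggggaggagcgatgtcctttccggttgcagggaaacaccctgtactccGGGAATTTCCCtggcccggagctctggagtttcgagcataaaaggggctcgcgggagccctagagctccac
Cxcl2 (chr5:90903749-90903898, plus strand): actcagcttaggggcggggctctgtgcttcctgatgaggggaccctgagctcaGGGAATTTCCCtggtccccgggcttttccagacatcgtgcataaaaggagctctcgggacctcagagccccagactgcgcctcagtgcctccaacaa
Il6 (chr5:30012964-30013113, plus strand): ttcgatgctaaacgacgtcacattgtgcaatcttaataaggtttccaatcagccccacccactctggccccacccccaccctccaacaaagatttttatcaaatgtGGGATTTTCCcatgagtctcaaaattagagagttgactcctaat
Nfkbia (chr12:55492648-55492797, minus strand): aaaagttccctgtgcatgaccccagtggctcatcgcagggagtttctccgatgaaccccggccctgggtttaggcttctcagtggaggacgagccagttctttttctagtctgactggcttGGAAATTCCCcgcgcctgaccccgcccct
The interactions of these 4 genes were -0.99 ± 0.65 for Cxcl1, -1.81 ± 0.69 for Cxcl2, -0.89 ± 0.82 for Il6 and 0.16 ± 0.58 for Nfkbia. The windows of Tnip3 and Nfkbie held 0 matches to these exact letters. Kappa B sites with other letters were not searched, so these windows are not shown to lack a site.

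Type I interferon-stimulated genes lay closer to additivity. Of 128 listed, 117 were tested, with 73 below and 44 above 0 and 0 at an unadjusted p under 0.05 in either direction. Their median interaction was -0.21, from a median of -0.26 for DKO minus SAMHD1 KO and -0.044 for MDA5 KO minus WT. For MDA5 KO minus WT 62 of 117 lay below 0, against 45.6% of all genes. The sign rested on WT 3: without it the median interaction was 0.12, with 75 of 117 above 0, and without WT 3, SAMHD1 KO 2 and DKO 3 together it was 0.26. The mean level over the list was 10.40, 10.37 and 9.76 in DKO and 10.55, 10.49 and 10.51 in SAMHD1 KO. It was 9.65, 9.40 and 9.80 in MDA5 KO and 10.09, 10.08 and 8.92 in WT. DKO lay below SAMHD1 KO in every library, and MDA5 KO lay below WT 1 and WT 2 but above WT 3.

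In 56 of the 117 genes (47.9%) expression was lower after MDA5 loss in both backgrounds, against 30.8% of all genes, and in 33 (28.2%) it was lower without SAMHD1 and higher with it, against 17.5%. Usp18, the isopeptidase that removes ISG15 and restrains interferon receptor signalling, had 761, 536 and 212 normalised reads in DKO and 991, 1209 and 1198 in SAMHD1 KO. It had 240, 98.7 and 249 in MDA5 KO and 487, 452 and 334 in WT. Neither pair overlapped and both went the same way, by -1.35 and -1.21, with an interaction of -0.14 (95% interval -1.50 to 1.22), or 0.022 without WT 3.

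Ifi27l2a, an interferon-induced mitochondrial protein gene, had 4088, 5794 and 2095 normalised reads in DKO and 5628, 16654 and 14487 in SAMHD1 KO. It had 1706, 953 and 2168 in MDA5 KO and 6703, 5346 and 7084 in WT. DKO 2 and SAMHD1 KO 1 overlapped, while MDA5 KO lay below every WT library, and the interaction was 0.46 (95% interval -0.92 to 1.85). Isg15, the ubiquitin-like modifier, had 201, 278 and 115 in DKO and 313, 385 and 394 in SAMHD1 KO. It had 94.1, 30 and 175 in MDA5 KO and 269, 204 and 235 in WT. Both pairs were without overlap and the differences were -0.96 and -1.55, with an interaction of 0.59 ± 0.73. Rtp4 at 0.68 ± 0.42, Nmi at 0.53 ± 0.38, Irf7 at -0.22 ± 0.47, Ifit1 at -0.65 ± 1.09 and Rsad2, which encodes viperin, at -0.66 ± 0.71 also had 95% intervals that included 0. Without WT 3, Irf7 stood at 0.085, Ifit1 at 0.51 and Rsad2 at -0.10.

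The list members with the smallest unadjusted p and at least 20 normalised reads were Slfn3 at 0.95 ± 0.45 and Slfn1 at 0.82 ± 0.39, both of the Schlafen family. Ifi208 and Ifi205 of the interferon-inducible p200 family stood at -2.99 ± 1.57 and -1.45 ± 1.09, and at -1.44 and -0.43 without WT 3.

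Promoters of 3 interferon-stimulated genes are shown because, among members holding GAAA, any 2 bases and GAAA again, they were lower in both backgrounds by the widest margin. These letters are the core of the interferon-stimulated response element and were searched in the same window on both strands. The letters were in 41 of 92 matched members (44.6%) and in 943 of 27025 promoters (3.49%). In Isg15 3 matches overlap and in Oas1g 2, and capitals mark the matches.
Isg15 (chr4:156200819-156200968, minus strand): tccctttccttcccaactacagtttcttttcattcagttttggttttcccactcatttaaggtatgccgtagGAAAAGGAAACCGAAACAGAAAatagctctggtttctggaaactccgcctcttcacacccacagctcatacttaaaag
Ifi211 (chr1:173913047-173913196, minus strand): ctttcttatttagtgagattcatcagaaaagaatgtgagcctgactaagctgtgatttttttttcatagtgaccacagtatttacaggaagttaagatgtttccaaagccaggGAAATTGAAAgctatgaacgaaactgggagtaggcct
Oas1g (chr5:120887614-120887763, minus strand): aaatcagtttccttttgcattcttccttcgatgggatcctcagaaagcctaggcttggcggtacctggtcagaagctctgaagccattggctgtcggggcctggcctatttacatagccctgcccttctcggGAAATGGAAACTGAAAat
The 3 genes had interactions of 0.59 for Isg15, -0.01 for Ifi211 and 0.49 for Oas1g, and Ifi211 stood at 0.51 without WT 3.

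Targets of interferon gamma and IRF1 had a median interaction of -0.30 over 30 tested genes, with 20 below 0, and of 0.11 without WT 3. Gbp11, of the guanylate-binding protein family, is annotated as a polymorphic pseudogene. It had 57.8, 17.6 and 5.85 normalised reads in DKO and 46.6, 98.7 and 81.9 in SAMHD1 KO, 2 groups that overlapped. It had 41.1, 31.2 and 13.8 in MDA5 KO and 25.1, 6.16 and 9.46 in WT, which also overlapped, and its interaction was -3.02 ± 1.10. Class I MHC and peptide loading genes had a median of -0.0028, with 12 of 24 on each side of 0. Without WT 3 it was 0.15, with 19 of 24 above 0, and without WT 3, SAMHD1 KO 2 and DKO 3 0.23, with 22 of 24. Within them Calr, the chaperone calreticulin, stood at 0.64 ± 0.29 and Pdia3, its disulfide isomerase partner, at 0.39 ± 0.24.

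Of 26 interferon ligand and receptor genes 5 were tested, with interactions from -0.48 to 0.16. Ifnb1 had 2 reads in the 12 libraries together, Ifna2 had 1, Ifnab 10, Ifng 2 and Ifnl2 7. Ifnar1 and Ifngr1, receptor chains for type I interferon and interferon gamma, stood at -0.48 ± 0.39 and -0.36 ± 0.31, and both at -0.12 without WT 3. The 32 nucleic acid sensors and adaptors had a median of -0.24, and of 0.11 without WT 3, and ran from -2.99 to 2.46. At an unadjusted p under 0.05, 1 of 32 was higher and 2 lower, against 0.859% and 2.35% of all genes. Without WT 3 these counts were 1 and 0. Tmem173, which encodes STING, had 1225, 1641 and 1048 normalised reads in DKO and 843, 1140 and 1189 in SAMHD1 KO. It had 911, 769 and 948 in MDA5 KO and 1097, 1245 and 1067 in WT. The first pair overlapped, MDA5 KO lay below WT, and the interaction was 0.67 ± 0.30. Prkdc, the DNA-dependent protein kinase, had -0.95 ± 0.44, or -0.65 without WT 3, and Ikbke, the IKK epsilon kinase, -0.93 ± 0.43. The 22 interferon signalling and transcription factor genes had a median of -0.12, and of 0.15 without WT 3 with 19 of 22 above 0. Among them were Irf8 at 0.69 ± 0.38 and Irf5 at 0.44 ± 0.30.

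Cholesterol biosynthesis genes lay above additivity with and without WT 3. Of 28 listed 25 were tested, 23 lay above 0 against 46.4% of all genes, and their median interaction was 0.45, or 0.46 without WT 3. The median was 0.53 for DKO minus SAMHD1 KO, with 20 of 25 above 0 against 51.7% of all genes, and 0.012 for MDA5 KO minus WT. At an unadjusted p under 0.05, 1 of 25 was higher and 0 lower, against 0.859% and 2.35% of all genes. The mean level was 9.22, 9.03 and 9.44 in DKO and 9.04, 8.32 and 8.48 in SAMHD1 KO. It was 8.81, 9.39 and 9.50 in MDA5 KO and 9.56, 8.74 and 9.28 in WT. Both pairs overlapped, SAMHD1 KO 1 lying above the lowest DKO library. All 23 alternatives kept the median above 0, from 0.17 with upper-quartile scaling, which lowers the median of all genes to -0.32, to 0.73 without SAMHD1 KO 1. The settings with no filter, other moderation and a replicate block could not move it from 0.45.

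Msmo1, which encodes methylsterol monooxygenase, was the member past an unadjusted p of 0.05 (chromosome 8, 64718139 to 64733792). It had 1037, 877 and 954 normalised reads in DKO and 915, 873 and 839 in SAMHD1 KO. It had 687, 993 and 1089 in MDA5 KO and 1702, 1080 and 1586 in WT. DKO and SAMHD1 KO overlapped, as did MDA5 KO and WT by 1 library, and the interaction was 0.78 ± 0.32. Mvk, mevalonate kinase, had 0.78 ± 0.39. Sqle, squalene epoxidase, had 147, 76.7 and 295 in DKO and 71.5, 2.30 and 12.2 in SAMHD1 KO. It had 39.3, 375 and 303 in MDA5 KO and 358, 24.7 and 184 in WT, an overlap as wide as the groups, with an interaction of 2.88 ± 1.71. Srebf2, the transcription factor of the pathway, stood at 0.20 ± 0.49, and at 0.32 without WT 3. The letters TCACNCCAC of the sterol regulatory element were in 1 of 18 matched members (5.56%) and 330 of 27025 promoters (1.22%). The search used the same window and both strands. The member was Hmgcs1, the synthase of the pathway's first committed precursor, at an interaction of 0.27 ± 0.35, or 0.48 without WT 3, and its match is in capitals.
Hmgcs1 (chr13:119690201-119690350, plus strand): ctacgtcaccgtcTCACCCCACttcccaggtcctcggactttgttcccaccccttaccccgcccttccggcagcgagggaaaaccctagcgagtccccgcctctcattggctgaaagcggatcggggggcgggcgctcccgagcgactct

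The medians of proliferation and housekeeping groups depended on WT 3. The median interaction of 48 replication genes was 0.49, with 43 above 0, and 0.01 without WT 3. For 44 genes of deoxynucleotide and nucleotide metabolism, the substrate pathway of SAMHD1, it was 0.38 and -0.035 without WT 3. For 73 oxidative phosphorylation genes it was 0.39 and -0.074, and for 65 mitosis genes 0.12 and -0.33. The replication list stood at 9.88 (log2) in WT 3 against 8.49 and 8.39 in WT 1 and WT 2. Mitosis genes also rested on SAMHD1 KO 1, at 5.54, where SAMHD1 KO 2 and 3 stood at 8.04 and 7.98, and without it their median interaction was -0.73. Values of named members were E2f2 at 1.51 ± 0.94, Pold2 at 0.98 ± 0.64, Bub3 at 0.64 ± 0.34, Kif18a at -1.12 ± 0.72, Pfas at -0.63 ± 0.31 and Dhodh at 0.58 ± 0.32. Without WT 3, E2f2 stood at 0.96, Pold2 and Bub3 at 0.33 each and Dhodh at 0.37.

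Cytosolic ribosomal protein genes had differences of the same sign in both backgrounds. All 76 lay lower in DKO than in SAMHD1 KO and lower in MDA5 KO than in WT, with medians of -0.78 and -0.98. At an unadjusted p under 0.05, 37 and 56 of them were lower, against 5.29% and 10.1% of all genes, and none passed after adjustment in limma. Their mean level was 10.61, 10.72 and 10.67 in DKO and 10.72, 11.87 and 11.77 in SAMHD1 KO. It was 10.78, 10.68 and 10.92 in MDA5 KO and 11.14, 11.41 and 12.65 in WT. The 6 libraries without MDA5 lay within a narrow range, and SAMHD1 KO 1 lay with them. These genes have near-identical copies, between which reads may be split. The median interaction was 0.13, and -0.31 without WT 3, where the medians of the 2 effects were -0.78 and -0.51.

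**Figure D3:**
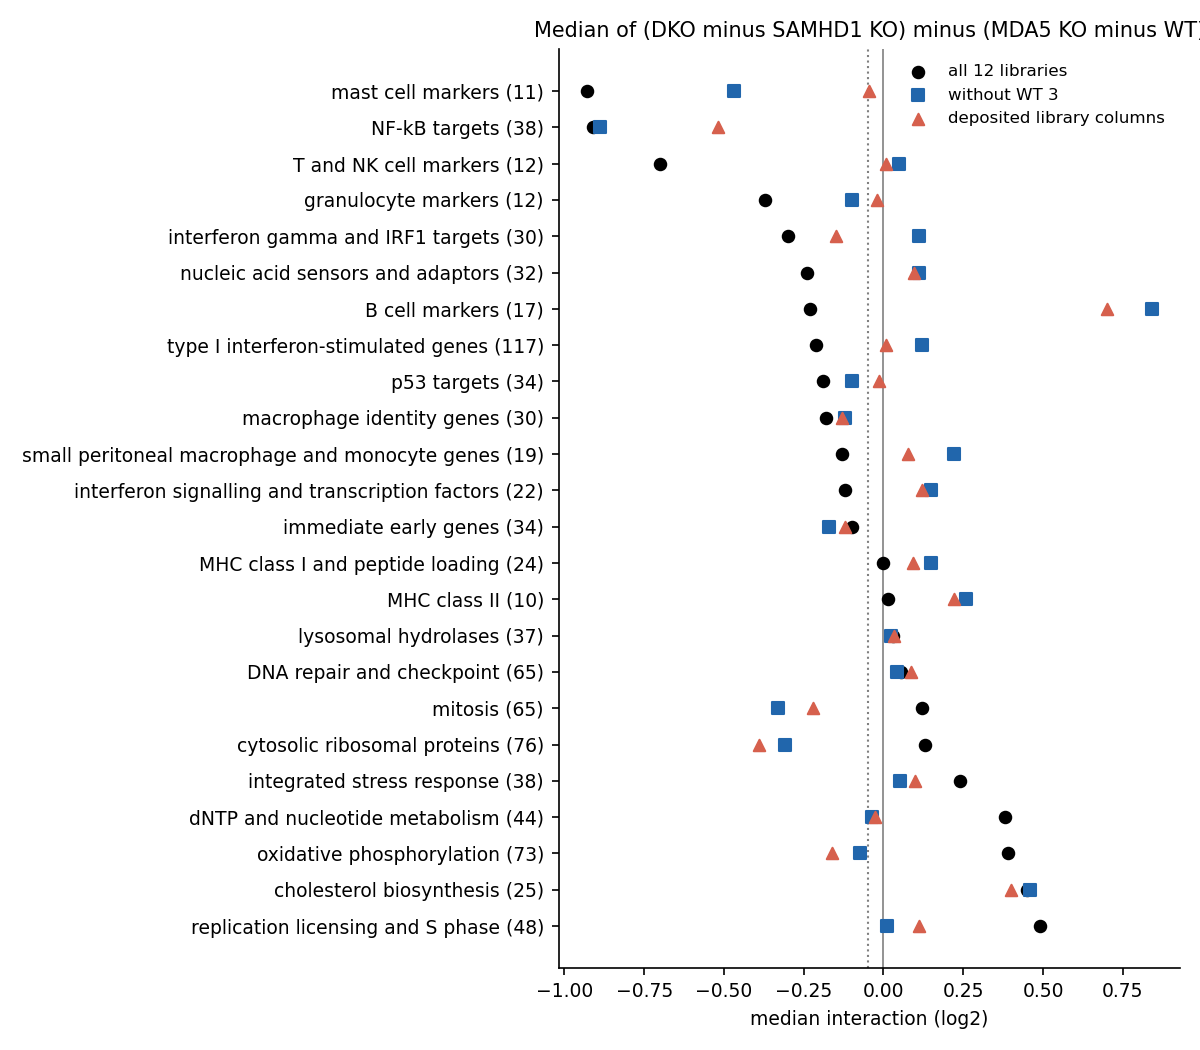
Median interaction (log2, horizontal) of each list with at least 10 tested genes (number in brackets), from all 12 libraries (circles), without WT 3 (squares) and from the deposited library columns (triangles). The solid line is 0 and the dotted line the median of all genes, -0.05. NF-kB targets stay lowest among the lists with over 20 genes in all 3 versions, and cholesterol biosynthesis stays at 0.40 or above, while the replication, nucleotide and oxidative phosphorylation medians move to near 0 or below it.

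DNA repair and checkpoint genes had a median of 0.055 (65 genes), the integrated stress response 0.24 (38) and immediate early genes -0.10 (34). Without WT 3 the stress response stood at 0.052 and immediate early genes at -0.17. The p53 targets had a median of -0.19 (34), or -0.10 without WT 3, and lay below 0 in all 23 alternatives. In some of these they lay next to the median of all genes. With the deposited columns they stood at -0.013 against -0.021 for all genes, and without the 3 adjusted libraries at -0.015 against -0.0078. Pmaip1, which encodes the cell death protein NOXA, had 357, 213 and 266 normalised reads in DKO and 479, 544 and 536 in SAMHD1 KO. It had 383, 328 and 350 in MDA5 KO and 238, 289 and 343 in WT. DKO lay below SAMHD1 KO without overlap, MDA5 KO and WT overlapped, and the interaction was -1.22 ± 0.34. Ddb2, a DNA damage binding factor, had -2.20 ± 0.86, or -1.36 without WT 3. Interactions were also below 0 for Ddit3, the stress factor CHOP, at -1.35 ± 0.51, Zfp36, which destabilises cytokine mRNAs, at -1.11 ± 0.43, and Fos at -1.04 ± 0.42. MDA5 KO 3 was the highest library for Zfp36, at 11148 normalised reads, and for Fos, at 2471. Without it their interactions were -0.80 and -0.60. Macrophage identity genes had a median of -0.18 (30), or -0.12 without WT 3.

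The 10 genes of smallest unadjusted p with at least 50 normalised reads on average were chosen by the interaction itself, so their values are descriptions. Of these, 8 lay below the additive expectation and 2 above it. Tgm2, which encodes transglutaminase 2, had 837, 455 and 559 normalised reads in DKO and 2749, 958 and 1063 in SAMHD1 KO. It had 584, 668 and 1171 in MDA5 KO and 255, 360 and 324 in WT. Neither pair overlapped and they went opposite ways, against an additive expectation of 3500 for DKO. Its interaction was -2.55 ± 0.56 at an unadjusted p in limma of 0.000614 and an adjusted p of 0.894. Tgm2 (chromosome 2, 158116402 to 158146436) lies 981137 bases from Samhd1, and the part of that position in its values was not tested.

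Ankrd9, an ankyrin repeat gene, showed the reverse. It had 74.5, 74.0 and 86.8 normalised reads in DKO and 39.1, 33.3 and 46.5 in SAMHD1 KO. It had 43.6, 43.7 and 35.8 in MDA5 KO and 86.5, 66.8 and 62.2 in WT. Both single knockouts lay below both other genotypes in every library, and the interaction was 1.76 ± 0.47. Gatsl3, which encodes the arginine sensor CASTOR1, stood at 1.48 ± 0.41, with DKO above SAMHD1 KO in every library.

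Cd55, the complement decay-accelerating factor, had 87.8, 72.3 and 49.7 normalised reads in DKO and 1109, 348 and 268 in SAMHD1 KO. It had 237, 135 and 179 in MDA5 KO and 219, 312 and 124 in WT, which overlapped. The difference was -2.77 ± 0.50 without SAMHD1 and -0.19 ± 0.50 with it, and the interaction was -2.58 ± 0.71. Ryr2, a calcium release channel, had 1509, 898 and 1449 normalised reads in DKO and 3266, 849 and 847 in SAMHD1 KO, which overlapped. It had 2030, 1544 and 1497 in MDA5 KO and 358, 308 and 74.3 in WT, without overlap, with an interaction of -3.13 ± 0.83. Slc15a2, a peptide transporter, had -3.96 ± 1.13, Rab4a, a GTPase of recycling endosomes, -2.53 ± 0.69, Zmynd15 -1.81 ± 0.52 and Atp8b4, a phospholipid flippase, -1.32 ± 0.37. Without WT 3 the interaction was -2.42 for Ryr2, -4.33 for Slc15a2, -1.91 for Rab4a, -1.65 for Zmynd15 and -1.11 for Atp8b4.

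**Figure D4:**
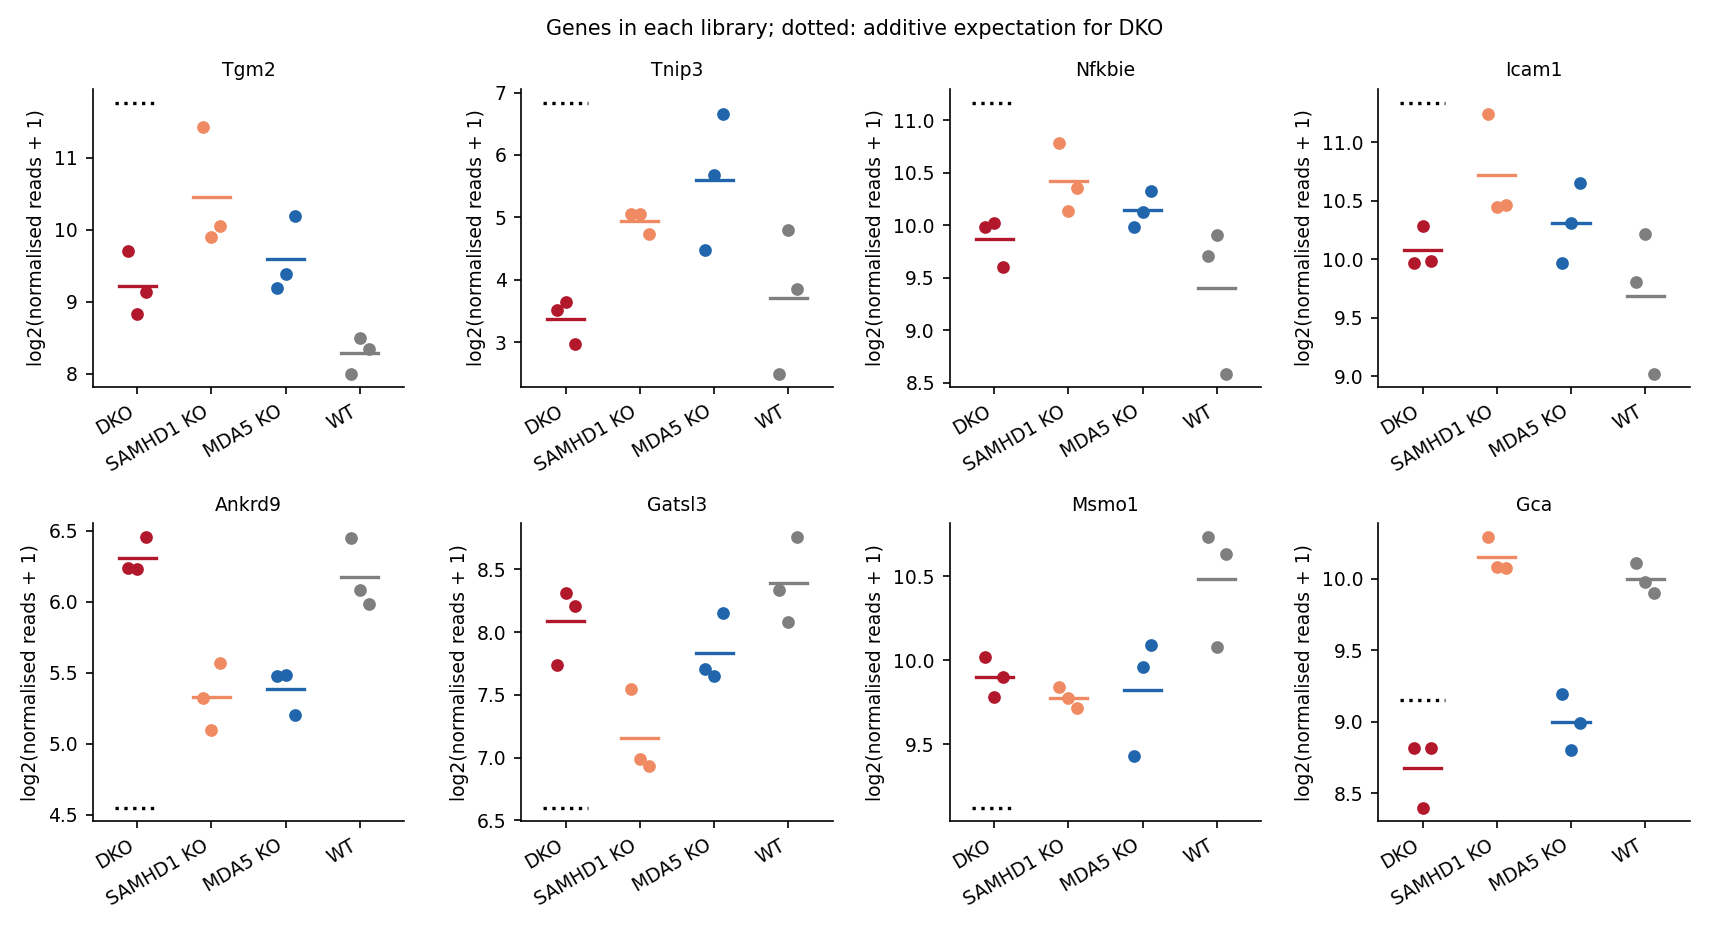
Log2(normalised reads + 1) of 8 genes in each library, with genotypes from DKO to WT, a bar at each genotype mean and the additive expectation for DKO as a dotted line. The axes do not start at 0. DKO lies under the dotted line for Tgm2, Tnip3, Nfkbie, Icam1 and Gca and over it for Ankrd9, Gatsl3 and Msmo1.

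Beside Ifih1, 1 gene passed the threshold in DKO minus SAMHD1 KO. Gca, which encodes the calcium-binding protein grancalcin, lies 18030 bases from Ifih1 (chromosome 2, 62664285 to 62694109). It had 449, 336 and 449 normalised reads in DKO and 1253, 1082 and 1078 in SAMHD1 KO. It had 585, 446 and 507 in MDA5 KO and 1103, 1008 and 955 in WT. It fell by 1.48 ± 0.19 (log2) without SAMHD1, with an adjusted p in limma of 0.0358, and its difference of -1.0 ± 0.19 with SAMHD1 had an adjusted p of 0.196. Both pairs went the same way without overlap, and the interaction was -0.48 ± 0.27. The count of called genes in DKO minus SAMHD1 KO was 0 in most alternatives, 6 without WT 3 and 133 without SAMHD1 KO 1. Fap, a serine protease gene on the other side of Ifih1, had 0.0 in all 3 DKO libraries and 22.5 to 48.2 in SAMHD1 KO. It had 0.855, 45.0 and 0.0 in MDA5 KO, the 45.0 in MDA5 KO 2, and 4.11 to 17.6 in WT. The interaction of Fap was -3.72 ± 1.70, a size that depends on the pseudocount. Without MDA5 KO 2 it was -2.03, and MDA5 KO minus WT went from -1.43 to -3.13. The neighbours of Samhd1 were Soga1 at -0.49 ± 0.49 and Rbl1 at -0.16 ± 0.32, which stood at -0.021 and -0.35 without WT 3. The part of the targeted alleles in the neighbours' values was not tested.

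The deposited library columns gave another version of the same interaction. In the table of MDA5 KO and WT the column of WT 3 equals the mean of the other 5 libraries to within 8e-07 for each of 15130 genes, so it holds no value of its own. The interaction from these columns and that from the reads had the same sign in 69.7% of genes, with a Pearson's r of 0.61 across genes. Its median size was 0.19 against 0.37 from the reads, and 99.2% of genes lay within 1. With these columns 0 genes were called, at a smallest adjusted p of 0.0625 in limma, and the NF-kB and cholesterol medians were -0.52 and 0.40. Those of interferon-stimulated, replication and ribosomal protein genes were 0.0091, 0.11 and -0.39.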

How the data were processed

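RNA of 12 libraries was sequenced in bulk. The submitters' processing notes name STAR, Salmon, R 4.1.2 and DESeq2 with GRCm38 and mm10, while the extraction text mentions Ensembl Gene 61, bedtools 2.16.2 and pBWA 0.5.9-r32-MPI-patch2; which of these made the tables is not given in the sources used here. The authors deposited 6 pairwise tables of log2 values per library, with a mean signal of normalised reads per gene. In the deposited log2 columns, the mean difference between any of WT 3, SAMHD1 KO 2 and DKO 3 in a table and that table's other libraries had been removed gene by gene. Both columns together gave back whole reads to within 0.05 reads for 100.0% of genes in all 6 tables, with 33641 genes in all.

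Size factors came from the median of ratios. A gene was tested where 3 or more libraries reached a CPM of 0.228, equal to 10 reads at median depth, and 15130 genes did. Log2(normalised reads + 1) was fitted by genotype over all 12 libraries with limma version 3.58.1 (R 4.3.3; variance trend, robust moderation). P-values were adjusted by Benjamini-Hochberg across the 15130 genes, with a threshold of 0.05. The fit and the recovery of reads were tested on simulated data. Tables were handled in Python 3.11.15 with numpy 2.4.6, scipy 1.17.1 and pandas 2.3.3. Totals were 33234361 to 58345425 reads per library; without molecular identifiers, reads are not independent molecules. Coordinates are those of GRCm38.

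Named genes were the targeted genes and their nearest tested neighbours, the 10 of smallest unadjusted p whose mean reached 50 normalised reads, and the 2 of smallest unadjusted p whose mean reached 20 in each of 15 lists. Genes outside this rule were chosen after their values were seen. The members and lists were chosen with earlier results of these data known. The 23 alternatives covered scaling, filter, pseudocount, model, moderation, replicate block, the deposited columns, the adjusted libraries and each library left out in turn. For a gene tested in the main fit, no filter, other moderation and the replicate block change the p-value but not the estimate. An unchanged sign or median in these settings is therefore no sign of stability.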

Additional observations from a re-analysis of the deposited data

Results flagged for a closer look

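In 4 results all 3 DKO libraries lay on one side of all 3 SAMHD1 KO libraries while all 3 MDA5 KO libraries lay on the opposite side of all 3 WT libraries. They were the mean log2 level of the NF-kB targets, at -1.06 relative to the additive expectation, Tgm2 with an interaction of -2.55, Nfkbie with -1.30 and Ankrd9 with 1.76. Among all 15130 genes, 20 (0.132%) showed this pattern with DKO lower and 21 (0.139%) with DKO higher. For the 3 genes the limma test of the interaction did not pass, at an adjusted p of 0.894 each, and for the NF-kB level the difference was not tested.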

How the results depend on the processing

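The interaction held 0 called genes in all 23 alternatives, at smallest adjusted p-values in limma from 0.0625 to 1.0. The p-values from the deposited columns, 0.0625 among them, and the counts resting on them are not comparable with the others. Differences between libraries had been removed from these columns before the fit. Genes at an unadjusted p under 0.05 numbered 790 with the deposited columns, 768 with no filter, 296 without the 3 adjusted libraries, and 276 to 1121 with 1 library left out. Genes within 1 of additivity made up 73.6% to 99.2% over all alternatives, and 78.4% to 88.2% with 1 library left out. For DKO minus SAMHD1 KO, 65 genes were called with the deposited columns, a count under the limit just given. The count was 0 under library totals, limma-voom, no filter, no trend or robust moderation, a pseudocount of 0.5, upper-quartile scaling or without the adjusted libraries. With 1 library left out it was 0 to 133. For MDA5 KO minus WT, 6 were called with upper-quartile scaling and 0 with the adjusted set as a term, the deposited columns, library totals, limma-voom, a pseudocount of 0.5 or without the adjusted libraries, and 0 to 5 with 1 library left out. Where the count changed, the cause was not tested.

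The NF-kB median was -0.52 with the deposited columns, -1.18 with upper-quartile scaling and -1.10 to -0.80 with 1 library left out. Without the adjusted libraries the interferon-stimulated median was 0.26 and that of interferon gamma targets 0.14. With 1 library left out these ranged from -0.40 to 0.12 and from -0.58 to 0.11, mitosis from -0.73 to 0.48 and cholesterol from 0.26 to 0.73. Of 989 values for 43 named genes, 979 kept their sign, and the 10 others were in Ifih1, Samhd1, Soga1 and Rbl1. The 979 include the settings that cannot move an estimate. All named genes but the targeted ones and their neighbours were chosen by the p of this same interaction. Their kept signs are therefore no independent support. Upper-quartile scaling moved the median of all genes to -0.32, no filter to -0.26.

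With the replicate block, 0 genes were called in the interaction, 666 lay at an unadjusted p under 0.05, and 0 were called in either pair. Same-numbered libraries deviated together with r from -0.057 to 0.34, over 0.1 in 8 of 18 pairs. The mean r was 0.09 for same-numbered pairs and -0.045 for the other pairs. The labels state no pairing, so the main fit used none. Whether libraries of the same number share a source of variation was not tested.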

Other observations

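Lysosomal hydrolases, the degradative enzymes of macrophages, lay close to additivity, with a median interaction of 0.031 over 37 genes, 19 above and 18 below 0. MHC class II genes had a median of 0.015 over 10 genes, with 5 on each side of 0, and 0.26 without WT 3. Genes of small peritoneal macrophages and monocytes had a median of -0.13 over 19 genes, and 0.22 without WT 3. Marker sums of B cells were 3499 to 4278 normalised reads in DKO, 3099 to 3481 in SAMHD1 KO, 4206 to 4726 in MDA5 KO and 1701 to 21033 in WT, with the highest value in WT 2.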
